A study of Homo sapiens with 36 samples.

Results

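RNA of H446 cells, an established line of human small-cell lung cancer of the NEUROD1 subtype, was compared to ask whether the transcriptional response to the BET inhibitor JQ1 differs when NEUROD1 is absent. The quantity described is the difference in response: the JQ1 minus DMSO change of each gene in 3 NEUROD1-knockout clones (12, 15 and 2-1) minus the same change in 3 control clones (3, 10 and 13). The knockout clones carry the same NEUROD1 guide RNA, the control clones a non-targeting guide RNA and the label WT, and every line is a single clone. An effect of that guide at another site therefore cannot be told apart from loss of NEUROD1. Cells received 1 µM JQ1 or its solvent DMSO for 24 h, and each clone and treatment has 3 libraries labelled as biological replicates. Of the 36 libraries 35 were used: 8 of knockout clones with JQ1, 9 of knockout clones with DMSO, 9 of control clones with JQ1 and 9 of control clones with DMSO. Replicate 1 of JQ1-treated knockout clone 12 was left out, since it holds genes of lung and blood cells at high levels (called the foreign-RNA library below). Of 15711 genes tested, 11393 had a mean of at least 50 normalized counts with DMSO in both genotypes, and the account below is of these genes, since a gene that starts near 0 in a genotype cannot fall there. Levels are the authors' deposited read counts divided by a size factor per library, which are not corrected for gene length, and a response is the JQ1 minus DMSO difference of log2(normalized count + 1), averaged over the libraries of a clone. "Rose", "fell" and "called" mean an adjusted p under 0.05, and n is 3 clones in each genotype.

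NEUROD1 is a basic helix-loop-helix factor that drives neuronal and endocrine differentiation by binding E-box sequences with a partner protein, and it marks a subtype of small-cell lung cancer. BET proteins bind acetylated histones through their bromodomains and recruit the elongation kinase P-TEFb, and JQ1 competes for the bromodomain. Release of P-TEFb from its inhibitor HEXIM1 and a rise of HEXIM1 itself are known marks of BET inhibition, while loss of MYC or of lineage genes is a known effect in many cancer lines.

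The 35 libraries held 13282337 to 18890506 reads (median 16176503), and the library left out held 31825795. The glandular adhesion gene CEACAM6 gave 46010 normalized counts in the library left out, 80.4 in replicate 1 of JQ1-treated control clone 13, and 0 in the other 34. Counting error did not cover the differences between replicate libraries (2.18 to 14.1 for chi-square over its degrees of freedom), so none was counted as a repeat of another. NEUROD1 stood at 0 to 10.2 (median 0.486) with JQ1 and 0 to 6.60 (median 0) with DMSO in knockout clones, against 5939 to 8692 (median 6432) and 5134 to 6523 (median 6209) in control clones, so the libraries fit their labels. The neuroendocrine factor INSM1 had a median of 26.9 in knockout clones with JQ1 and 45.7 with DMSO, against 2594 and 3069 in control clones, so that the knockout clones are low in a defining marker of the labelled cell type.

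JQ1 changed many genes in the same direction in both genotypes (2388 rose in both, 2308 fell in both and 67 were called in opposite directions). A different response was called by limma for a smaller set. For 35.3% of the 11393 genes the clone responses of the genotypes did not overlap, whether called or not. In knockout clones 6719 of the 11393 genes changed with JQ1 (59.0%; 3475 rose, 30.5%, and 3244 fell, 28.5%). In control clones 6192 changed (54.3%; 3117 rose, 27.4%, and 3075 fell, 27.0%). In bulk RNA, fewer cells of a kind and less RNA per cell cannot be told apart. A change of at least 2-fold was met in 8.74% of these genes in knockout clones and 8.61% in control clones; over all 15711 genes JQ1 changed 54.8% and 50.3%. The response itself differed between genotypes for 235 of all genes tested (1.5%, 0.719% higher and 0.777% lower) and, of the 11393, for 116 (1.02%), with 69 higher in knockout clones (0.606%) and 47 lower (0.413%), by limma on the 6 clone responses with Benjamini-Hochberg adjustment over all 15711 genes. The difference was at least 1 on the log2 scale for 46 of these (0.404%), 22 higher and 24 lower. Its size ranged from 0.48 to 4.11 with a median of 0.89, where the median standard error over all 11393 genes was 0.127. The number rests on all clones: without knockout clone 15, or without control clone 3, 10 or 13, limma called 0 of the 11393 genes, and 2114, 1915, 1727 and 2026 had an unadjusted p under 0.05, against 2801 with all clones. Without knockout clone 12 it called 35, without clone 2-1 35, 30 with the foreign-RNA library added back and 73 without control clone 13 with JQ1, replicate 1; edgeR on reads summed per clone called 848 and DESeq2 1555, with 115 of the 116 genes called by each.

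**Figure D1:**
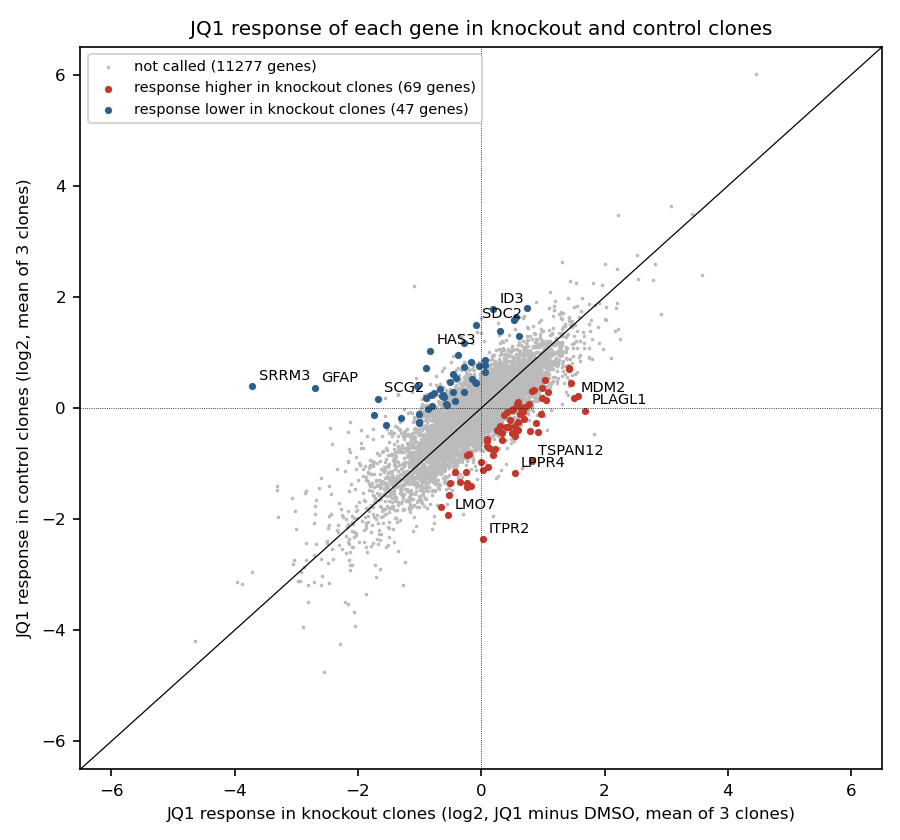
JQ1 response in knockout clones (x axis) against control clones (y axis), each the mean over 3 clones of JQ1 minus DMSO on the log2 scale, for the 11393 genes. Points below the diagonal have a higher response in knockout clones (69 called, red) and points above it a lower one (47 called, blue); SRRM3 and GFAP lie far to the left, and ITPR2 far below.

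A higher response in knockout clones came about in several ways. Of the 69 genes, 22 rose in knockout clones with no call in control clones, 17 rose in knockout and fell in control clones, 13 fell in control clones with no call in knockout clones, 9 fell in both and 8 rose in both. Of the 47 genes with a lower response, 19 fell in knockout clones with no call in control clones, 14 rose in control clones with no call in knockout clones, 8 fell in knockout and rose in control clones, 4 rose in both and 2 fell in both. Genes called in both genotypes in opposite directions are described first.

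TSPAN12, a tetraspanin of Frizzled receptor complexes, rose in knockout clones and fell in control clones. It stood at 306 to 524 (median 451) with JQ1 and 131 to 328 (median 285) with DMSO in knockout clones, against 1421 to 2764 (median 1661) and 2755 to 5801 (median 2927) in control clones. On the log2 scale the knockout clones changed by 1.13, 0.83 and 0.53 and the control clones by -1.08, -0.99 and -0.79 (difference 1.78, SE 0.18, adjusted p = 0.026). Despite the opposite moves its level remained lower in every knockout library than in every control library. LPPR4 (now PLPPR4), a phospholipid phosphatase-related membrane protein of neurons, went the same way, at 77.4, 75.7 and 795 with JQ1 and 38.0, 51.2 and 760.2 with DMSO in knockout clones 12, 15 and 2-1, against 249, 117 and 218 and 604, 252 and 473 in control clones 3, 10 and 13. Its difference in response was 1.71 (SE 0.24, adjusted p = 0.0403), from log2 changes of 1.01, 0.55 and 0.06 in knockout clones and -1.28, -1.11 and -1.12 in control clones. Knockout clone 2-1 holds far more LPPR4 than the other knockout clones and has the smallest change of the 3, and the knockout mean passes 50 only through that clone.

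ARHGEF3, an exchange factor of RhoA, stood at 152 to 433 (median 239) with JQ1 and 84.8 to 208 (median 134) with DMSO in knockout clones, against 435 to 619 (median 544) and 496 to 929 (median 841) in control clones. Knockout clones gave log2 changes of 0.87, 1.03 and 0.86, against -0.11, -0.57 and -0.60 in control clones (difference 1.35, SE 0.15, adjusted p = 0.0321). PCTP, a phosphatidylcholine transfer protein, was at 238 to 412 (median 344) and 109 to 263 (median 203) in knockout clones, against 52.99 to 108 (median 73.6) and 81.3 to 158 (median 90.6) in control clones. With log2 changes of 1.07, 0.82 and 0.48 in knockout clones and -0.32, -0.45 and -0.45 in control clones, the difference was 1.20 (SE 0.16, adjusted p = 0.0375). SUOX, the mitochondrial sulfite oxidase, and PHACTR4, a regulator of protein phosphatase and actin, rose by 0.55 and 0.60 in knockout clones on the log2 scale, where control clones gave -0.50 and -0.40. Their differences were 1.04 (SE 0.13, adjusted p = 0.0359) and 1.00 (SE 0.14, adjusted p = 0.0375). SUOX had 387 to 498 (median 437) with JQ1 in knockout clones, against 163 to 248 (median 198) in control clones, and these do not overlap. With DMSO it had 246 to 368 (median 294) in knockout clones, against 202 to 381 (median 299) in control clones, and these overlap.

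HAS3, an enzyme that makes hyaluronan, showed the reverse pattern. It stood at 989 to 2727 (median 1402) with JQ1 and 1901 to 3575 (median 3042) with DMSO in knockout clones, against 117 to 281 (median 178) and 52.7 to 110.3 (median 94.9) in control clones. The log2 change with JQ1 was -1.13, -0.45 and -0.90 in knockout clones and 1.203, 0.92 and 0.97 in control clones, a difference of -1.86 (SE 0.19, adjusted p = 0.0279). The levels of the genotypes came closer with JQ1, yet every knockout library was still above every control library. MFSD2A, a transporter of lysophosphatidylcholine lipids, was at 263 to 579 (median 532) and 771 to 924 (median 809) in knockout clones, against 543 to 1151 (median 1078) and 314 to 836 (median 576) in control clones. On the log2 scale the knockout clones changed by -0.65, -0.58 and -1.45 and the control clones by 0.80, 0.50 and 0.85 (difference -1.61, SE 0.25, adjusted p = 0.0493). Its libraries overlap between genotypes with either treatment, and it is the change within clones that differs.

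RAB27A, a GTPase that docks secretory granules, fell in knockout clones to 153 to 336 (median 208), against 190.3 to 487 (median 314) with DMSO, and rose in control clones to 318 to 376 (median 351), against 189 to 253 (median 230.2) with DMSO. Its difference in response was -1.08 (SE 0.10, adjusted p = 0.026), from log2 changes of -0.53, -0.56 and -0.31 in knockout clones and 0.56, 0.68 and 0.61 in control clones. TMEM107, a membrane protein of the ciliary transition zone, stood at 177 to 253 (median 232) with JQ1 and 249 to 353 (median 295) with DMSO in knockout clones, against 123 to 217 (median 171) and 85.2 to 148 (median 113) in control clones. Knockout clones gave log2 changes of -0.34, -0.38 and -0.49, against 0.59, 0.55 and 0.48 in control clones (difference -0.94, SE 0.09, adjusted p = 0.0248). With DMSO the libraries of the genotypes overlap for RAB27A and stand apart for TMEM107, which is higher in knockout clones. PLXND1, a semaphorin receptor, and NGFR, the low-affinity neurotrophin receptor, also fell in knockout clones and rose in control clones. Their differences were -1.02 (SE 0.16, adjusted p = 0.0493) and -0.98 (SE 0.15, adjusted p = 0.0482). NGFR levels differed widely between clones of a genotype, with DMSO means of 9035, 31631 and 5727 in knockout clones 12, 15 and 2-1 and 198, 2195 and 2225 in control clones 3, 10 and 13.

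Because these genes move in opposite directions with and without NEUROD1, the 250 bases upstream of the RefSeq start (GRCh38.p14) of the first of them are shown, for the E-box CAGATG that NEUROD1 is known to bind (in capitals; CATCTG on the other strand). HAS3 lies at chr16:69107290-69107539 (plus strand), TSPAN12 at chr7:120858145-120858394 (minus strand), LPPR4 at chr1:99264242-99264491 (plus strand) and MFSD2A at chr1:39954895-39955144 (plus strand), and each is written along its own strand.
HAS3: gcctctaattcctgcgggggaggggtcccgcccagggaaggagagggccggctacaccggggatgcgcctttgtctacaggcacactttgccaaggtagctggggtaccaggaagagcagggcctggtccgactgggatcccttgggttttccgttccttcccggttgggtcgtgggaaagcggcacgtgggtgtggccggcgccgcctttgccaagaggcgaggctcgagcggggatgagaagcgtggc
TSPAN12: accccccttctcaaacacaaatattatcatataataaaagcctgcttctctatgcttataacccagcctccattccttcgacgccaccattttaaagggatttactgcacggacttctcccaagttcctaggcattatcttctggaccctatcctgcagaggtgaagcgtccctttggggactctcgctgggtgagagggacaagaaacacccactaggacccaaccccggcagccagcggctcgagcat
LPPR4: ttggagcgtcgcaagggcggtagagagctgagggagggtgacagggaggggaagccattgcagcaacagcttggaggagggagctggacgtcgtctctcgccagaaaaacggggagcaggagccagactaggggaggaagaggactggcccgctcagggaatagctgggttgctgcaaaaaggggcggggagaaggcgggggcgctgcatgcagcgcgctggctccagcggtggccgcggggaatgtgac
MFSD2A: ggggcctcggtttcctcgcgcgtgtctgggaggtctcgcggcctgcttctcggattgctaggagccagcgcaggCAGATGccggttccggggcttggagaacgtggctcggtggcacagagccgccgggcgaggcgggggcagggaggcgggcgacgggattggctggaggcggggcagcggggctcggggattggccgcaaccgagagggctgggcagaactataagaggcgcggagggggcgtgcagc
MFSD2A holds CAGATG and the others do not. Over all called genes with an entry, 6 of 59 with a higher response (10.2%) and 3 of 38 with a lower response (7.89%) hold CAGATG on either strand, where 12.2% of all 27305 promoters in the table and 7.22% of those of the 11393 genes do. The wider E-box CANNTG, of which CAGATG is a case, is in 29 (49.2%) and 18 (47.4%) of them and in 62.2% of all promoters and 52.1% of those of the 11393 genes. Only 78.9% of the 11393 genes matched an entry, fewer than the 80% set as a minimum, so the called genes are not read as above or below either share. These are matches of letters in a short window, and binding was not measured here.

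ITPR2, an inositol trisphosphate receptor that releases calcium from stores, had the largest positive difference. Its clone means were 152, 159 and 80.2 with JQ1 and 131, 168 and 85.5 with DMSO in knockout clones 12, 15 and 2-1, against 3.62, 5.06 and 15.7 and 16.4, 23.1 and 131 in control clones 3, 10 and 13. With log2 changes of 0.21, -0.05 and -0.09 in knockout clones and -1.98, -2.10 and -2.99 in control clones, the difference was 2.38 (SE 0.30, adjusted p = 0.0359). The control mean passes 50 only through clone 13, and clones 3 and 10 fell to levels of a few counts. Of the 116 genes, 103 have at least 50 in every clone with DMSO and 13 do not.

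PLAGL1, an imprinted zinc finger factor, rose in knockout clones to 434 to 717 (median 534), against 109.6 to 209 (median 194) with DMSO, while control clones had 558 to 2673 (median 1331) with JQ1 and 454 to 3473 (median 1213) with DMSO. The log2 change with JQ1 was 1.44, 1.85 and 1.76 in knockout clones and 0.06, -0.43 and 0.23 in control clones, a difference of 1.73 (SE 0.20, adjusted p = 0.0333). MDM2, the ubiquitin ligase that restrains p53, stood at 5032 to 5782 (median 5399) with JQ1 and 1350.2 to 2302 (median 2148) with DMSO in knockout clones, against 1551 to 3692 (median 2368) and 1418 to 2838 (median 2312) in control clones. On the log2 scale the knockout clones changed by 1.23, 1.95 and 1.36 and the control clones by 0.16, 0.04 and 0.33 (difference 1.34, SE 0.21, adjusted p = 0.0482). With JQ1 every knockout library was above every control library, and with DMSO the libraries overlap. BSN, the active-zone scaffold bassoon, rose in knockout clones by 1.57 on the log2 scale, and the control value was 0.21, which was not called. Its difference in response was 1.36 (SE 0.21, adjusted p = 0.0493), from log2 changes of 1.08, 1.82 and 1.81 in knockout clones and 0.18, 0.17 and 0.28 in control clones.

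Other genes had a higher response through a fall in control clones. SNX33, a sorting nexin, was at 230.1 to 272 (median 243) with JQ1 and 227 to 329 (median 279) with DMSO in knockout clones, against 41.4 to 72.0 (median 59.5) and 111 to 203 (median 152) in control clones. Knockout clones gave log2 changes of 0.08, -0.27 and -0.30, against -1.52, -1.36 and -1.34 in control clones (difference 1.24, SE 0.15, adjusted p = 0.0334). VLDLR, a receptor of lipoproteins and of reelin, was at 534 to 976 (median 842) and 436 to 907 (median 848) in knockout clones, against 1219 to 3181 (median 2509) and 2891 to 6240.1 (median 5109) in control clones. With log2 changes of -0.09, 0.19 and 0.22 in knockout clones and -0.996, -1.05 and -1.13 in control clones, the difference was 1.16 (SE 0.12, adjusted p = 0.0282). The control libraries were above the knockout libraries in both treatments, and the gap was smaller with JQ1. FGGY, a carbohydrate kinase, fell in control clones only by the test (difference 1.18, SE 0.19, adjusted p = 0.0499). LMO7, a LIM-domain protein of cell junctions, fell in both genotypes: it fell by 0.53 in knockout clones and fell by 1.93 in control clones on the log2 scale (difference 1.40, SE 0.17, adjusted p = 0.0334).

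SRRM3, a splicing regulator of neural microexons, had the most negative difference. Clone means were 0.972, 17.0 and 1.25 with JQ1 and 13.6, 129 and 60.4 with DMSO in knockout clones 12, 15 and 2-1, against 199, 273 and 261 and 143, 221 and 198 in control clones 3, 10 and 13. The log2 change with JQ1 was -3.09, -2.87 and -5.18 in knockout clones and 0.47, 0.30 and 0.40 in control clones, a difference of -4.11 (SE 0.63, adjusted p = 0.0466). With JQ1, knockout clones 12 and 2-1 were near 0, so the size of the fall there depends on the pseudocount. GFAP, an intermediate filament of glia, fell in every knockout clone although its level differed widely between them, with means of 27.5, 45.6 and 1395 with JQ1 and 219, 334 and 6814 with DMSO in clones 12, 15 and 2-1, against 234, 437 and 143 and 154, 397 and 116 in control clones. On the log2 scale the knockout clones changed by -2.95, -2.85 and -2.29 and the control clones by 0.61, 0.14 and 0.30 (difference -3.05, SE 0.24, adjusted p = 0.0211). It has the lowest adjusted p of the 116 genes.

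SCG2, the granule protein secretogranin, was at 640.1, 449.6 and 2443 with JQ1 and 2832, 932 and 8677 with DMSO in knockout clones 12, 15 and 2-1, against 15205, 7042 and 5367 and 14901, 6391 and 4216 in control clones 3, 10 and 13. Its difference in response was -1.85 (SE 0.29, adjusted p = 0.0493), from log2 changes of -2.15, -1.05 and -1.83 in knockout clones and 0.03, 0.14 and 0.35 in control clones. FST, the activin antagonist follistatin, was at 193 to 608 (median 514) and 549 to 2906 (median 1420.2) in knockout clones, against 92.2 to 368 (median 204) and 83.8 to 439 (median 235) in control clones. Knockout clones gave log2 changes of -2.18, -1.45 and -1.57, against 0.20, -0.26 and -0.33 in control clones (difference -1.60, SE 0.25, adjusted p = 0.0493). RNF112, a neural RING finger protein, and BHLHE40, a helix-loop-helix repressor, fell in knockout clones too, with differences of -1.44 (SE 0.21, adjusted p = 0.0417) and -1.24 (SE 0.15, adjusted p = 0.0339).

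Some genes had a lower response through a rise in control clones. ID3, which blocks helix-loop-helix factors by pairing with their partners, stood at 2544 to 7912 (median 7125) with JQ1 and 2604 to 6644 (median 5405) with DMSO in knockout clones, against 777 to 4651 (median 3396) and 235 to 1099 (median 1054) in control clones. With log2 changes of -0.05, 0.25 and 0.39 in knockout clones and 1.67, 2.03 and 1.65 in control clones, the difference was -1.59 (SE 0.17, adjusted p = 0.0279). SDC2, a syndecan of the cell surface, was at 2547 to 5533 (median 3317) and 2338 to 6305 (median 3828) in knockout clones, against 73.0 to 514 (median 154) and 22.3 to 247 (median 44.6) in control clones. The log2 change with JQ1 was -0.20, -0.18 and 0.12 in knockout clones and 1.58, 1.91 and 1.02 in control clones, a difference of -1.59 (SE 0.24, adjusted p = 0.045). Every knockout library held more SDC2 than any control library, while the ID3 ranges with JQ1 overlap. The control mean of SDC2 passes 50 only through clone 13, with DMSO means of 28.5, 40.8 and 242 in control clones 3, 10 and 13. PRKAR1B, a regulatory subunit of protein kinase A, and CTNNA2, the neural alpha-catenin, had differences of -1.34 (SE 0.21, adjusted p = 0.0499) and -1.44 (SE 0.19, adjusted p = 0.0375). CTNNA2 passes the mean of 50 through 1 clone of each genotype, with DMSO means of 209.5, 8.85 and 4.73 in knockout clones 12, 15 and 2-1 and 3.44, 18.4 and 147 in control clones 3, 10 and 13.

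**Figure D2:**
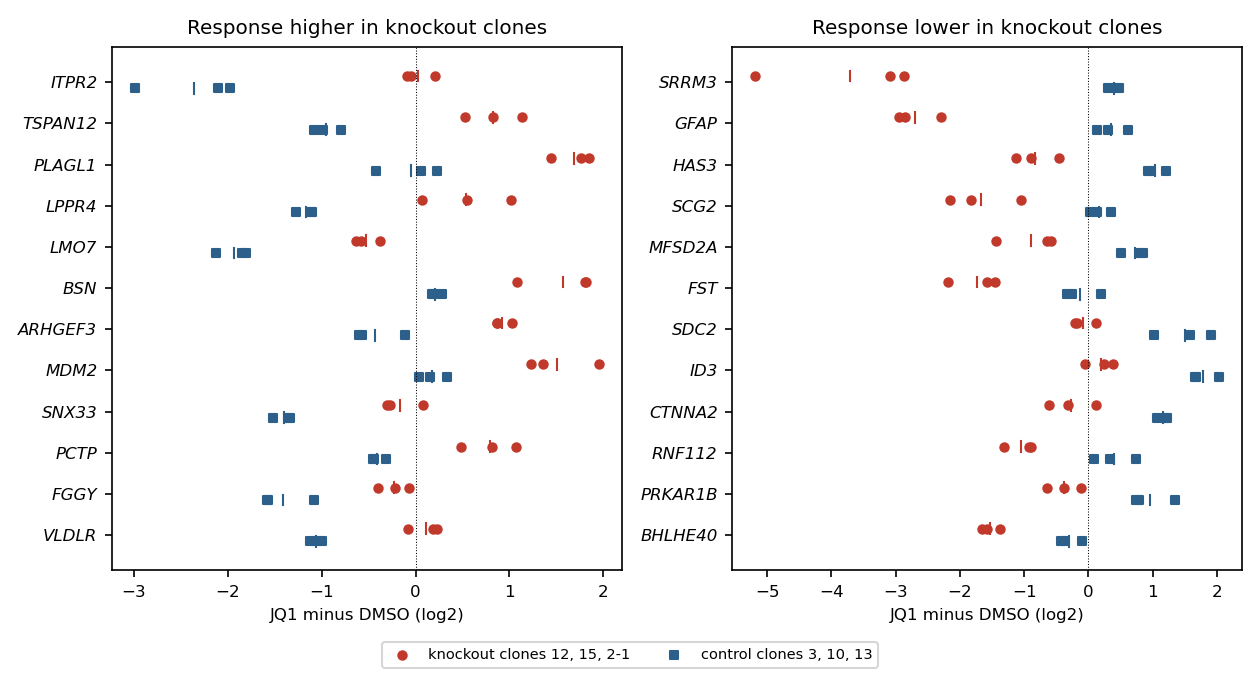
JQ1 response of each clone (log2, JQ1 minus DMSO) for the 12 largest positive (left) and 12 largest negative differences (right). Circles are knockout clones, squares control clones and vertical ticks the means; the clones of the genotypes do not overlap for any gene shown, as the choice of these genes required.

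**Figure D3:**
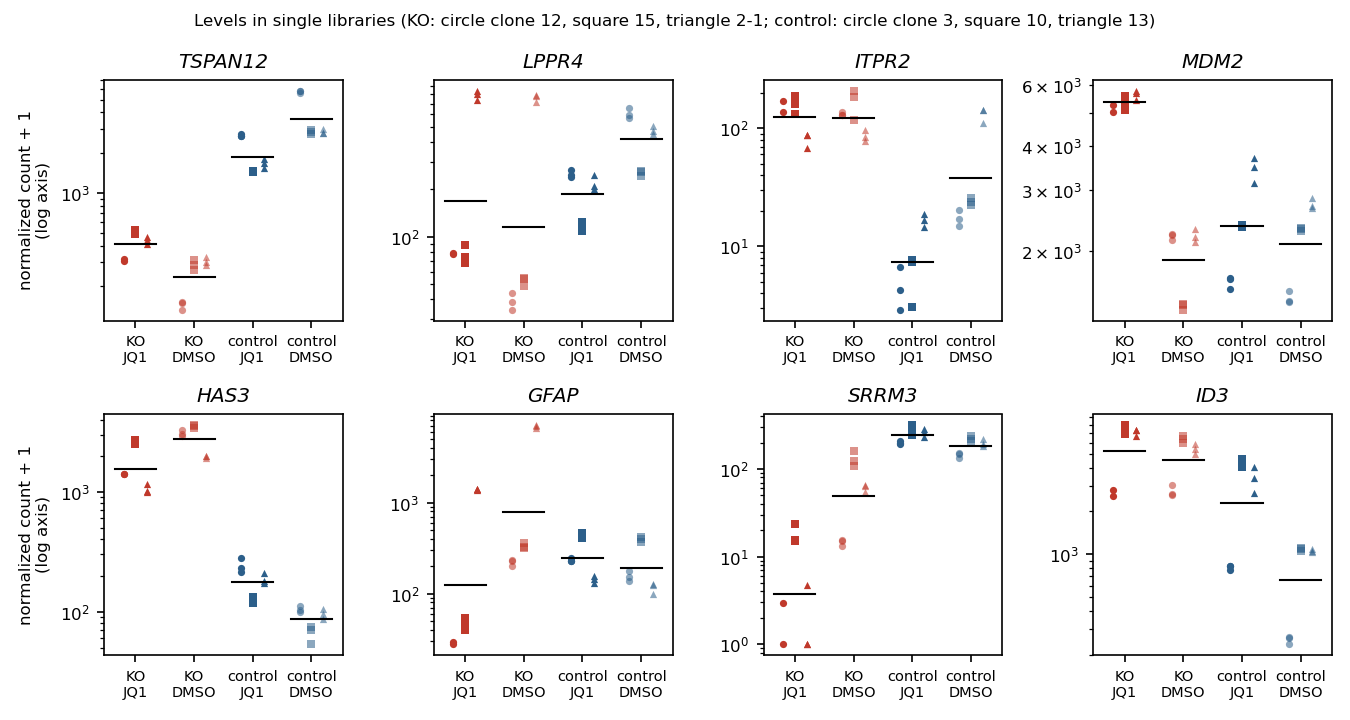
Normalized counts plus 1 (log axis) of 8 genes in single libraries, with the mean of log values over clones as a bar. TSPAN12 and HAS3 move in opposite directions with JQ1 in the genotypes, LPPR4 and GFAP stand far higher in knockout clone 2-1 than in clones 12 and 15, and ITPR2 is high in only 1 of the control clones, clone 13.

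Neuroendocrine and neuronal lists held several of the genes with a higher response. Of 11 genes of a neuroendocrine score with a mean of at least 50, 3 had a higher response in knockout clones and 0 a lower one, against 0.606% and 0.413% of all genes, and the median difference was 0.19 (0.03 over all genes). These were BSN, SYP and SH3GL2. SYP, the vesicle protein synaptophysin, stood at 125 to 239.5 (median 217) with JQ1 and 65.3 to 155 (median 87.6) with DMSO in knockout clones, against 2041 to 2340.4 (median 2125) and 2093 to 2549.8 (median 2274) in control clones. On the log2 scale the knockout clones changed by 0.92, 0.68 and 1.29 and the control clones by -0.26, -0.10 and 0.02 (difference 1.08, SE 0.17, adjusted p = 0.0499). SH3GL2, an endophilin of vesicle recycling, rose in both genotypes, by 1.46 in knockout clones and 0.46 in control clones (difference 1.01, SE 0.14, adjusted p = 0.0375). Even after this rise SYP was far below its control level in every knockout library. The other 14 of the 25 genes of the score missed the mean of 50 or were not tested.

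The 8 genes of the non-neuroendocrine score with a mean of at least 50 had a median difference of 0.10. All knockout clones lay above all control clones for 2 of them and below for 3, where 20.5% and 14.8% of all genes do. Of these 8, CCND1, the cyclin of early G1, had a lower response (difference -1.13, SE 0.18, adjusted p = 0.0499). Its clone means were 63.3, 235 and 144 with JQ1 and 138, 520.0 and 453 with DMSO in knockout clones 12, 15 and 2-1, against 506, 740.0 and 406 and 604, 866 and 419.8 in control clones 3, 10 and 13. Of 25 neural transcription factors, POU4F1 and REST had a higher response and ID3 a lower one (median difference 0.06). POU4F1, a sensory neuron factor, was at 109 to 148 (median 135) with JQ1 and 88.5 to 137 (median 112) with DMSO in knockout clones, against 1322 to 2539 (median 1678) and 2186 to 3859 (median 3022) in control clones. Its difference in response was 0.96 (SE 0.10, adjusted p = 0.0279), from log2 changes of 0.20, 0.29 and 0.17 in knockout clones and -0.65, -0.86 and -0.70 in control clones. REST, the repressor of neuronal genes, fell in control clones to 86.5 to 201 (median 155), against 179.8 to 310.2 (median 215) with DMSO, while knockout clones had 794 to 1244 (median 920.3) with JQ1 and 731 to 1146 (median 980.3) with DMSO (difference 0.78, SE 0.11, adjusted p = 0.0375). Its level in knockout clones was above the control level in every library.

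Of 20 synaptic vesicle genes, BSN and SYP had a higher response by limma and 0 a lower one (median -0.01). All knockout clones lay above all control clones for 4 and below for 5, where 20.5% and 14.8% of all genes do. By edgeR 2 were higher and 2 lower, and by DESeq2 3 higher and 4 lower. Of all 11393 genes these tools called 848 and 1555. Among 26 genes of axon guidance and neural adhesion, ROBO1, a receptor of Slit proteins, had a higher response (difference 0.65, SE 0.09, adjusted p = 0.0375) and EPHA3, an ephrin receptor, a lower one (difference -0.84, SE 0.11, adjusted p = 0.0375). EPHA3 stood at 6837 to 11583 (median 7966) with JQ1 and 10328 to 19126 (median 11218) with DMSO in knockout clones, against 10994 to 14499 (median 13087) and 9276 to 12972 (median 11094) in control clones, and the libraries of the genotypes overlap with either treatment. Of 10 voltage-gated channel genes, CACNB4, a calcium channel subunit, had a higher response (difference 1.13, SE 0.16, adjusted p = 0.0415) and fell in both genotypes. The medians of axon guidance (0.06) and of channel genes (-0.03) take the other sign in FPKM (-0.01 and 0.17).

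HEXIM1, the inhibitor of P-TEFb, stood at 2049.8 to 3452 (median 2885) with JQ1 and 416 to 931 (median 792) with DMSO in knockout clones, against 1812 to 2452 (median 2115) and 396 to 494 (median 461) in control clones. It rose by 1.96 in knockout clones and 2.22 in control clones, and the difference was -0.25 (95% interval -0.83 to 0.33, adjusted p = 0.551). MYC rose in both genotypes, to 1672 to 4174 (median 2227) with JQ1, against 509 to 1173 (median 779.8) with DMSO in knockout clones, and to 2259 to 5384 (median 3911), against 839 to 2525 (median 2374), in control clones. Its difference was 0.58 (95% interval 0.03 to 1.13, adjusted p = 0.185), and each knockout clone rose more than each control clone. With reads summed per clone, edgeR gave 0.60 (adjusted p = 0.0891) and DESeq2 0.59 (adjusted p = 0.0212), so MYC is called by DESeq2 alone of these tools. BCL2, an inhibitor of apoptosis, was not called in either genotype, with a difference of -0.05 (95% interval -0.58 to 0.49, adjusted p = 0.914). These intervals leave room for differences of the size found for called genes.

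Of 10 genes that BET inhibitors are known to raise, 9 rose and 1 fell in each genotype. Of all genes, 30.5% rose and 28.5% fell in knockout clones, and 27.4% and 27.0% in control clones. Of these 10, 1 had a lower response in knockout clones. All knockout clones lay below all control clones for 5 and above for 2, where 14.8% and 20.5% of all genes do. By edgeR 2 were higher and 2 lower, and by DESeq2 2 higher and 5 lower. The median difference was -0.43. The gene called was the histone HIST1H2BK, at 1334 to 1962 (median 1835) with JQ1 and 715 to 1527 (median 1278) with DMSO in knockout clones, against 683 to 1763 (median 1571) and 237 to 592 (median 477) in control clones (difference -1.08, SE 0.14, adjusted p = 0.0375). Of 9 replication-dependent histone genes, which also include HIST1H2BK, 8 rose in each genotype, where 30.5% and 27.4% of all genes rose. All knockout clones lay below all control clones for 5 and above for 0, where 14.8% and 20.5% of all genes do. The median difference was -0.66. By limma 1 was lower, by edgeR 2 and by DESeq2 6, with 0 higher by each. Since histone genes are almost the same in sequence, reads may be shared out among them and single values are uncertain. Of 30 BET protein and P-TEFb genes, AFF1, a scaffold of the super elongation complex, had a higher response. It stood at 1639 to 2210.5 (median 1909) with JQ1 and 1458 to 1599 (median 1496) with DMSO in knockout clones, against 1485 to 1896 (median 1746) and 2014 to 2619 (median 2390.4) in control clones. Knockout clones gave log2 changes of 0.36, 0.42 and 0.23, against -0.38, -0.46 and -0.51 in control clones (difference 0.79, SE 0.09, adjusted p = 0.0333). In 11 of these 30 genes all knockout clones were above all control clones, where 20.5% of all genes are, and in 0 below.

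Cytoplasmic ribosomal protein genes, which build the translating ribosome, had small negative differences. None of the 78 passed the test by limma, where 58 had an unadjusted p under 0.05, 24 passed by edgeR and 45 by DESeq2, all with a lower response in knockout clones. The same criteria were met by 2801, 848 and 1555 of all 11393 genes, in both directions. In 70 of 78 all knockout clones lay below all control clones, where 14.8% of all genes do. The median difference was -0.30, with list medians of -0.25, -0.37 and -0.18 in knockout clones 12, 15 and 2-1 and 0.12, 0.08 and -0.03 in control clones 3, 10 and 13. By the test within a genotype 0 rose and 49 fell in knockout clones, and 13 rose and 3 fell in control clones. Of all 11393 genes, 30.5% rose and 28.5% fell in knockout clones, and 27.4% rose and 27.0% fell in control clones. RPS6 and RPS2, those of the highest mean, had differences of -0.19 (95% interval -0.44 to 0.06, adjusted p = 0.296) and -0.28 (95% interval -0.52 to -0.04, adjusted p = 0.154). Equal library totals gave a median of -0.30, FPKM -0.25, the foreign-RNA library added back -0.31, and leaving out control clone 13 with JQ1, replicate 1, -0.30.

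Mitotic genes fell with JQ1 in most cases. Of 60 G2/M genes, 37 fell in knockout clones and 51 in control clones, where 28.5% and 27.0% of all genes fell. The median response of the list was -0.52 in knockout and -0.91 in control clones. None had a different response by limma, where 19 had an unadjusted p under 0.05, 5 passed by edgeR and 20 by DESeq2, all with a higher response in knockout clones. Over all 11393 genes, in both directions, the same criteria were met by 2801, 848 and 1555. All knockout clones lay above all control clones for 31 of 60, where 20.5% of all genes do, and below for 0. The median difference was 0.35, 0.33 with the foreign-RNA library and 0.35 without control clone 13 with JQ1, replicate 1. List medians were -0.57, -0.67 and -0.32 in knockout clones 12, 15 and 2-1. In control clones 3, 10 and 13 they were -0.74, -0.85 and -1.25, lowest in clone 13. HMMR, a spindle-associated protein, and FOXM1, the factor that drives mitotic genes, had the largest differences, 0.77 (SE 0.19, adjusted p = 0.0871) and 0.75 (SE 0.22, adjusted p = 0.122), and were named after their values were seen. TOP2A and TUBB4B, those of the highest mean, had -0.07 (95% interval -0.74 to 0.60, adjusted p = 0.903) and -0.13 (95% interval -0.71 to 0.44, adjusted p = 0.761). The share of dividing cells was not measured.

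Of 66 G1/S genes, UHRF1, which recruits DNA methylation to replicated DNA, had a lower response in knockout clones, and 23 had all knockout clones below all control clones against 3 above, where 14.8% and 20.5% of all genes do. UHRF1 was at 2048 to 2658 (median 2290.5) with JQ1 and 2098 to 2462 (median 2156) with DMSO in knockout clones, against 4306 to 6529 (median 5150.1) and 2872 to 3813 (median 3276) in control clones. With log2 changes of 0.12, 0.06 and 0.00 in knockout clones and 0.59, 0.70 and 0.68 in control clones, the difference was -0.60 (SE 0.08, adjusted p = 0.0375). The median difference of the list was -0.11. Of 46 genes of oxidative phosphorylation none was called by limma (5 by edgeR, 10 by DESeq2, all lower; 17 at an unadjusted p under 0.05), 21 had all knockout clones below all control clones and 1 above, and the median was -0.13. Of 36 lysosome and autophagy genes none was called by limma (12 at an unadjusted p under 0.05; 1 higher and 3 lower by edgeR, 1 and 5 by DESeq2), 12 had all knockout clones below and 1 above, against the same 14.8% and 20.5% of all genes, and the median was -0.18. For all 11393 genes, in both directions, 2801 had an unadjusted p under 0.05, while edgeR called 848 and DESeq2 1555.

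**Figure D4:**
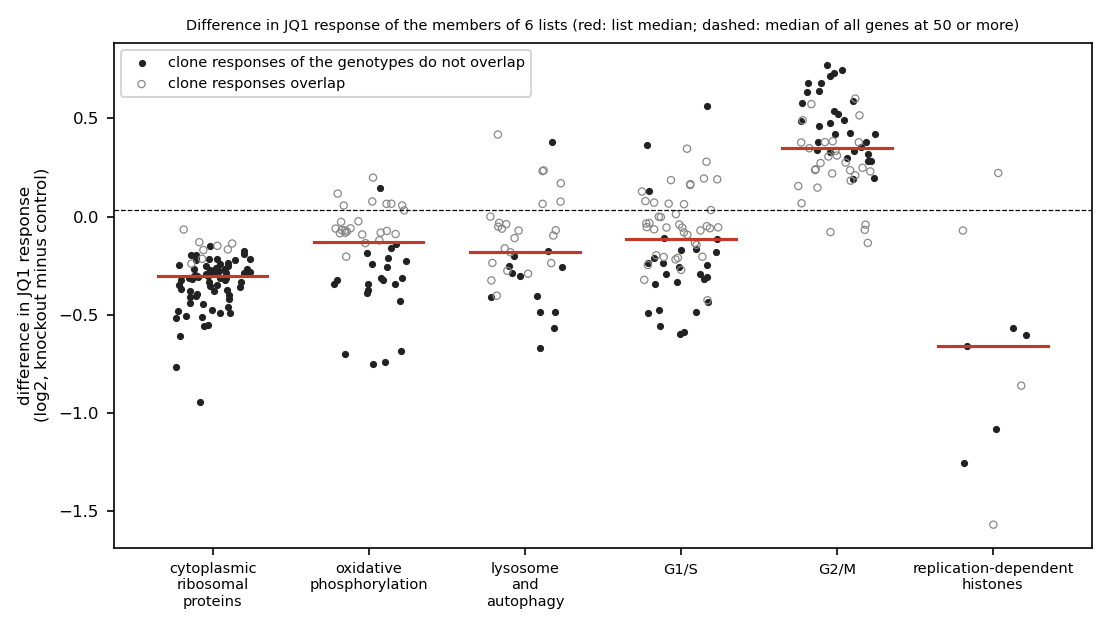
Difference in JQ1 response (log2, knockout minus control) of the members of 6 lists with a mean of at least 50; filled points are genes whose clones do not overlap between genotypes, red lines the list medians and the dashed line the median of all 11393 genes (0.03). Ribosomal protein genes lie below the dashed line and most G2/M genes above it.

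**Figure D5:**
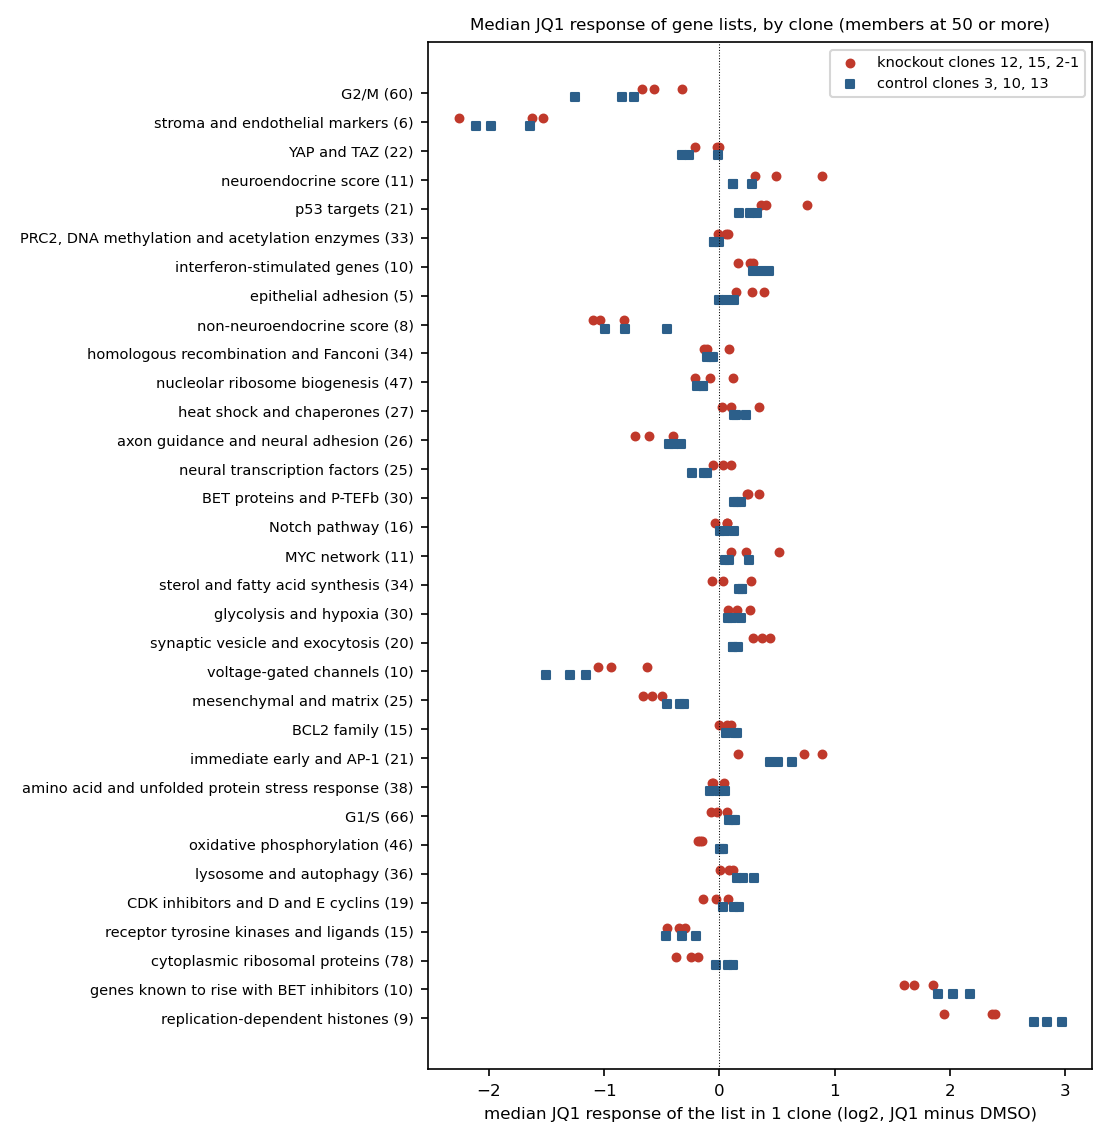
Median JQ1 response of each list in each clone (log2), for members with a mean of at least 50, whose number is given in brackets. Knockout clones (circles) lie below control clones (squares) for ribosomal protein, oxidative phosphorylation and histone genes, and above them for G2/M genes. Such a separation is not particular to these lists. Knockout clones also lie below for G1/S, lysosome and mesenchymal genes, among others. They lie above for neuroendocrine score, synaptic vesicle, channel, P-TEFb and p53 target genes, among others. For synaptic vesicle genes this holds although the median difference was -0.01.

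Chromatin enzymes held 1 call in each direction. Of 33 genes of PRC2, DNA methylation and histone acetylation, DNMT3B, a de novo DNA methyltransferase, had a higher response and UHRF1 a lower one (median difference 0.13). DNMT3B stood at 98.4 to 327 (median 265) with JQ1 and 104 to 276 (median 231) with DMSO in knockout clones, against 65.5 to 104 (median 86.4) and 123 to 173 (median 139.7) in control clones. The log2 change with JQ1 was 0.13, 0.07 and 0.36 in knockout clones and -0.61, -0.81 and -0.88 in control clones, a difference of 0.95 (SE 0.13, adjusted p = 0.0375). In 11 of the 33 all knockout clones were above all control clones and in 3 below, where 20.5% and 14.8% of all genes are.

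Stress and metabolic lists held single genes called by limma, where 1.02% of all 11393 genes were called. VLDLR was the called member of 38 genes of the amino acid and unfolded protein stress response (median difference -0.06), BHLHE40 of 30 genes of glycolysis and hypoxia (median 0.00) and CCND1 of 19 CDK inhibitors and cyclins (median -0.21). MDM2 was the called member of 21 p53 targets, with a median of 0.15 that takes the other sign in FPKM (-0.07). By edgeR the stress response list held 1 higher and 2 lower, glycolysis 0 and 5, cyclins 0 and 3 and p53 targets 2 and 1. By DESeq2 these were 4 and 3, 0 and 5, 1 and 5, and 2 and 1. Of all 11393 genes these tools called 848 and 1555. In the same order, all knockout clones lay above all control clones for 5, 3, 1 and 4 genes. They lay below for 7, 7, 6 and 4, where 20.5% and 14.8% of all genes do. No gene was called by limma among 34 of sterol and fatty acid synthesis (median 0.00), 27 of heat shock (0.07), 47 of nucleolar ribosome biogenesis (0.08) and 34 of homologous recombination (0.08). HSP90AA1, an abundant chaperone, rose in both genotypes, with a difference of 0.38 (95% interval 0.12 to 0.64, adjusted p = 0.111). FASN, the fatty acid synthase, rose by 0.94 in control clones, and the difference was -0.51 (95% interval -1.06 to 0.04, adjusted p = 0.231).

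Signalling and lineage lists had no called member by limma either. Their median differences were 0.01 for 16 Notch pathway genes, -0.06 for 21 immediate early genes, 0.23 for 22 YAP and TAZ genes, -0.30 for 15 receptor kinases and ligands, 0.11 for 10 interferon-stimulated genes, 0.11 for 5 epithelial adhesion genes, -0.03 for 25 mesenchymal and matrix genes, 0.01 for 11 MYC network genes and -0.05 for 15 BCL2 family genes. Medians this near 0 can change sign with the scale, as FPKM did for synaptic vesicle genes (0.00) and the MYC network (-0.01) and equal library totals for glycolysis (0.00). At an unadjusted p under 0.05 these lists and those of sterol synthesis, heat shock, nucleolar biogenesis and recombination held 57 genes in all, while edgeR called 20 and DESeq2 40. Among all 11393 genes the same criteria were met by 2801, 848 and 1555. Whether these lists differ from all genes in these counts was not tested. FN1, the matrix protein fibronectin, fell in knockout clones, with means of 94102, 28192 and 48309 with JQ1 and 191446, 43600.3 and 104863 with DMSO in clones 12, 15 and 2-1, against 3879, 2189 and 2578 and 3892, 2329.7 and 2209.7 in control clones 3, 10 and 13, and its difference was -0.97 (95% interval -1.38 to -0.55, adjusted p = 0.06). FGFR1, a receptor of fibroblast growth factors, rose in control clones, with a difference of -0.70 (95% interval -0.99 to -0.41, adjusted p = 0.0558).

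Markers of other cells that the libraries could hold were low for lung and blood and high for stroma. The summed level of lung epithelial markers was 12.2 to 80.5 (median 49.1) with JQ1 and 54.6 to 109 (median 62.9) with DMSO in knockout clones, against 14.4 to 156 (median 22.6) and 29.3 to 47.8 (median 39.2) in control clones. The surfactant gene SFTPA1 and CEACAM6 had a median of 0 over the 35 libraries. Blood cell markers summed to 229 to 913 (median 558) and 254 to 943 (median 298) in knockout clones, against 29.1 to 129.8 (median 86.3) and 33.2 to 117 (median 85.1) in control clones, and the antigen-presenting gene HLA-DRA had a median of 0. The member with the highest level is CD68, a lysosomal protein of macrophages (median 94.1 and highest 916 over the 35 libraries). None of their genes reached a mean of 50 in both genotypes.

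Stroma and endothelial markers, which include collagens, summed to 8504 to 12829 (median 10525) with JQ1 and 25838 to 55401 (median 39181) with DMSO in knockout clones, against 2399 to 6571 (median 3633) and 7618 to 18275 (median 12074) in control clones. Of 6 such genes with a mean of at least 50, 6 fell in knockout and 5 in control clones, where 28.5% and 27.0% of all genes fell. By limma 0 had a different response, and 0 had an unadjusted p under 0.05 in that test. By edgeR 1 was lower and by DESeq2 1, and the median difference was 0.30. COL1A2 and COL3A1, those of the highest mean, had differences of 1.09 (95% interval -0.16 to 2.35, adjusted p = 0.251) and 0.67 (95% interval -0.11 to 1.45, adjusted p = 0.257). The endothelial marker PECAM1 was not analysed here. The part of these markers in the results on matrix genes was not tested.

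Just outside the mean of 50 lay RP11-577H5.1 at 49.995 in the genotype with the lower DMSO mean (difference 0.09) and POLR2J4 at 49.99 (-0.54). Just inside lay a gene known only by a clone name at 50.04 (0.43) and ZNF497 at 50.07 (-0.72). Between 40 and 50 there were 345 genes, of which 6 were called, and between 50 and 60 there were 308, of which 7 were called.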

How the data were processed

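Messenger RNA of 6 H446 clones was sequenced in 3 libraries for each clone and treatment (TruSeq Stranded mRNA kit, according to the labels), and the tables that the authors deposited were used. The submitters' processing notes name cutadapt, STAR, RSEM and build hg19, with no version of any. The main table holds the authors' deposited normalized counts of 19014 genes, a signal of counts divided by a size factor per library, per the file headers. All values were whole multiples of a step per library (100% within 1e-06), so whole reads were recovered. The other table holds the authors' deposited FPKM, scaled by gene length and library size. Reads shared between near-identical or overlapping genes can be split, which makes their single values uncertain.

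Tests covered genes that reached 10 normalized counts in 9 or more of 35 libraries. Libraries were averaged per clone and treatment as log2(normalized count + 1), which understates changes of low genes, and limma 3.58.1 (R 4.3.3, expression trend) was fitted to the 6 JQ1 minus DMSO values, with 1 spread for both genotypes. Two-sided p-values were adjusted over all genes tested (Benjamini-Hochberg), with a threshold of 0.05, and 95% intervals of a difference are from the same fit. Whole reads summed per clone and treatment were tested with edgeR 4.0.16 (quasi-likelihood) and DESeq2 1.42.0. The members, gene lists and tests were chosen with earlier results of these data known. The genes named are HEXIM1, NEUROD1, BCL2 and MYC; the 12 largest differences of each sign among called genes with a mean of at least 50 and clones that do not overlap; up to 6 per direction called in opposite directions; and, for each list described, up to 4 called members or, with none, the 2 with the highest mean. Promoters are from RefSeq (GRCh38.p14) by symbol or synonym, 59 of 69 and 38 of 47 called genes matched, and no hg19 coordinates were used. Scripts were tested on simulated data. Some results are not reported here. Python 3.11.15 with matplotlib 3.10.9 made the figures.

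Alternatives were pseudocounts of 0.5 and 5, no filter on low values, a fit to the 11393 genes alone, TMM, equal library totals, other priors, FPKM (offset 0.1), the foreign-RNA library added back, single libraries with and without a replicate block, leaving out each clone or replicate number, a 2-fold minimum and, chosen after seeing the data, leaving out control clone 13 with JQ1, replicate 1.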

Additional observations from a re-analysis of the deposited data

Results flagged for a closer look

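The response to JQ1 differed between knockout and control clones for 235 of all 15711 genes tested, 113 higher and 122 lower in knockout clones, which is a difference between groups under the same contrast. Single genes named in the report are repeated here because that difference was itself tested (limma, adjusted p between 0.0211 and 0.0499, log2 scale, knockout minus control, all 3 knockout clones on 1 side of all 3 control clones).

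Among genes that fell in control clones, the difference was 2.38 for ITPR2, 1.40 for LMO7, 1.24 for SNX33, 1.18 for FGGY, 1.16 for VLDLR, 1.13 for CACNB4, 0.95 for DNMT3B, 0.78 for REST and 0.65 for ROBO1. Among genes that rose in knockout and fell in control clones, it was 1.78 for TSPAN12, 1.71 for LPPR4, 1.35 for ARHGEF3, 1.20 for PCTP, 1.04 for SUOX, 1.00 for PHACTR4, 0.96 for POU4F1 and 0.79 for AFF1. Among the other genes that rose in knockout clones, it was 1.73 for PLAGL1, 1.36 for BSN, 1.34 for MDM2, 1.08 for SYP and 1.01 for SH3GL2.

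Of genes that fell in knockout clones, the difference was -4.11 for SRRM3, -3.05 for GFAP, -1.85 for SCG2, -1.60 for FST, -1.44 for RNF112, -1.24 for BHLHE40, -1.13 for CCND1 and -0.84 for EPHA3. For genes that fell in knockout and rose in control clones, it was -1.86 for HAS3, -1.61 for MFSD2A, -1.08 for RAB27A, -1.02 for PLXND1, -0.98 for NGFR and -0.94 for TMEM107. For genes that rose in control clones and did not fall in knockout clones by the test, it was -1.59 for SDC2, -1.59 for ID3, -1.44 for CTNNA2, -1.34 for PRKAR1B, -1.08 for HIST1H2BK and -0.60 for UHRF1.

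A signal in data outside the comparisons was CEACAM6 at 46010 normalized counts in replicate 1 of JQ1-treated knockout clone 12, the one left out, where the other libraries of that clone with JQ1 had 0.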

How the results depend on the processing

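The number of genes with a different response depends on the processing far more than their direction: all 116 genes kept their sign in every alternative, but their clones do not overlap, so the sign without a clone is fixed by that choice. Over all genes tested and over those whose mean was 50 or more, where the numbers were 235 and 116, a pseudocount of 0.5 gave 155 and 69 and of 5 gave 520 and 259. No filter gave 163 and 38, a fit to genes with a mean of at least 50 gave 811, FPKM gave 154 and 53, and adding back the foreign-RNA library gave 88 and 30. Equal library totals gave 231 and 108, TMM 225 and 108, no expression trend 199 and 91, and a robust prior 186 and 81. Leaving out control clone 13 with JQ1, replicate 1, gave 173 and 73, and a difference of at least 1 was met by 157 and 46. On reads summed per clone, edgeR gave 985 and 848 and DESeq2 1769 and 1555. Leaving out a clone gave 0 to 109 and 0 to 35, with 0 or 1 over all genes without knockout clone 15 or control clone 3, 10 or 13 (unadjusted p under 0.05 for 2632 to 3153 genes), and leaving out a replicate number gave 46 to 87 and 16 to 27. The cause of these shifts was not tested. Treating libraries of a clone as independent gave 7459 and 6311 without a block and 7415 and 6285 with the replicate block. Same-numbered libraries of different clones or treatments did not deviate together on average (mean r 0.0059 over 187 pairs, range -0.20 to 0.28). JQ1 and DMSO libraries of the same clone were not examined apart from the other pairs, so pairing by number within a clone was not tested.

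JQ1 changed 8609 genes in knockout clones and 7901 in control clones. Leaving out a clone gave 6830 to 7976 and 5153 to 8452, and leaving out a replicate number 7871 to 7992 and 7117 to 7377. A change of at least 2-fold was met by 2079 and 1984. Over 81 named genes and 24 alternatives (1943 results), 1423 kept their side of the threshold, 455 lost a call, 65 gained one and 0 reversed.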

Other observations

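Outside the genes described, 119 of 4318 tested genes with a mean under 50 in DMSO in at least 1 genotype were called for a different response, 44 higher and 75 lower in knockout clones. Many of them are close to 0 in 1 genotype and cannot fall there; the genes below were chosen after their values were seen. KRT5, a keratin of basal epithelium, stood at 141 ± 120 with JQ1 and 1069.8 ± 902 with DMSO in knockout clones (SD, n = 3), against 0 with both in control clones. CHRNA9, a nicotinic receptor subunit, stood at 65.4 ± 45.0 and 859 ± 524 in knockout clones, against 0 and 0.665 ± 0.579 in control clones. CD5, a lymphocyte surface protein, was the opposite case, at 0.502 ± 0.445 and 0.108 ± 0.187 in knockout clones, against 28.6 ± 40.6 and 342 ± 485 in control clones, a spread above its mean.

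Others were measurable in both genotypes, but at only a few counts in control clones with DMSO. The size of their differences therefore depends on the pseudocount. EPHB3, an ephrin receptor, stood at 450.3 ± 268 with JQ1 and 599.8 ± 452 with DMSO in knockout clones, against 38.1 ± 26.7 and 2.54 ± 1.36 in control clones (difference -3.87, SE 0.40, adjusted p = 0.0279, limma). SYT12, a synaptotagmin, stood at 157 ± 74.5 and 445.8 ± 324 in knockout clones, against 24.7 ± 4.43 and 3.84 ± 1.43 in control clones (difference -3.81, SE 0.26, adjusted p = 0.0169, limma). For these genes the responses of all knockout clones lay below those of all control clones, as for 15.5% of all genes tested.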
